A study of Mus musculus with 2 samples.

Results

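Transcript levels of 8 genes of the phosphoinositide 3-kinase (PI3K)-AKT pathway were examined in neural stem/progenitor cells (NSPCs) with few or many lipid droplets (LDs). They are *Pik3r1*, *Pik3r2* and *Pik3r3*, which encode regulatory subunits of class I PI3K, *Pik3ca*, which encodes a catalytic subunit, the kinase genes *Akt1*, *Akt2* and *Mtor*, and *Foxo3*, a transcription factor gene. They were chosen with results of these cells known: *Pik3r1* was selected on its measured difference between cells with little and much LD signal, and the other 7 as well-known genes of the same pathway. All 8 were present among the 15046 genes of the count table.

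The study sequenced single proliferating NSPCs of the adult mouse subventricular zone by SORT-seq, a plate method that adds a well barcode and a unique molecular identifier (UMI) to each captured mRNA molecule at its 3' end. Cells came from 1 stable line, made by retroviral delivery of PLIN2-GFP (the LD coat protein perilipin 2 joined to green fluorescent protein) to NSPCs of male C57/Bl6 mice aged 6 to 8 weeks. The NSPCs had passed at least 5 times as neurospheres, were grown with 20 ng/ml EGF and 20 ng/ml FGF-2, and received no treatment. The 25% of cells with least GFP signal (GFP-low) and the 25% with most (GFP-high) were put singly into the wells of 2 plates with 384 wells, both categories on each plate. The GFP signal reads LD content through the fusion protein that all the cells carry, and both plates hold the same line, so the spread between plates does not measure variation between lines or animals.

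Class I PI3K is a dimer of a catalytic p110 and a regulatory subunit and makes the lipid PIP3 at the plasma membrane when receptors such as those for EGF, FGF or insulin are activated. The regulatory subunits p85α (*Pik3r1*), p85β (*Pik3r2*) and p55γ (*Pik3r3*) stabilize p110, hold it inactive in resting cells and bring it to phosphorylated receptors and adaptors. PIP3 recruits AKT, which promotes growth and glucose use, activates mTOR and keeps FOXO transcription factors such as FOXO3 out of the nucleus, where they favour quiescence and stress resistance. In adult neural stem cells the pathway is known for its part in the balance between proliferation and quiescence, with FOXO3 on the side of quiescence.

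*Pik3r1* lies on chromosome 13 of GRCm38 (chr13:101680563-101768217, minus strand, GENCODE M21). Its 4 coding transcripts have 4 distinct starts, and the gene is known to give p85α and the shorter p55α and p50α from separate promoters. As a 3' end count does not tell where a transcript began, the values below are for the gene as a whole. To show how far its starts differ, the windows from 250 bases before to 50 bases after a start, as RefSeq gives them for GRCm38.p6, are printed here 5' to 3' on the gene's strand, for the upstream and an internal start of *Pik3r1* (chr13:101768168-101768467 and chr13:101692581-101692880) and for 1 start of *Pik3r3* (chr4:116221166-116221465, plus strand), the one of the 8 genes with the largest differences between cell cycle phases.
Pik3r1 upstream start: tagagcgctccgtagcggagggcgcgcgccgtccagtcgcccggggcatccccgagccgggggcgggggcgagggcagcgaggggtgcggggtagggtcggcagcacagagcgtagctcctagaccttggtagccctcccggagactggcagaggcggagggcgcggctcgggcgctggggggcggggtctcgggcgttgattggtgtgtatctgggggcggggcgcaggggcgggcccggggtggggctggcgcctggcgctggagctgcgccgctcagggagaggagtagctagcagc
Pik3r1 internal start: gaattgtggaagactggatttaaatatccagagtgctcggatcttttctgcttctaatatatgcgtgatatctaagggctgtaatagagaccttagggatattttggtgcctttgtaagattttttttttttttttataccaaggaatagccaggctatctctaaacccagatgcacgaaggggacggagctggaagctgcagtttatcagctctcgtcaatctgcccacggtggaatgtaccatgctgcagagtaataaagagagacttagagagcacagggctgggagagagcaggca
Pik3r3: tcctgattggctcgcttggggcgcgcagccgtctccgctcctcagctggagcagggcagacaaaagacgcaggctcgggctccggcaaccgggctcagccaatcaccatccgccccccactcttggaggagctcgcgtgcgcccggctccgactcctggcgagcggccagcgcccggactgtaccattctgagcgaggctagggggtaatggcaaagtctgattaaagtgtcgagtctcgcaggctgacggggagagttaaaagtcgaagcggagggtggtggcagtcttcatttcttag

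The upstream window of *Pik3r1* has a GC content of 75.7% and 34 CpG dinucleotides, and the internal window 43.7% and 6. Of all 32851 promoter windows in the same set, 96.7% have a lower GC content than the upstream window and 18.2% a lower one than the internal window. The FOXO motif GTAAACA and the cell cycle motif CHR (TTTGAA) were searched on both strands, with matches in capitals, and the 3 windows hold neither. Among 15 windows of the 8 genes, 1 of *Akt1* holds the FOXO motif and 1 of *Mtor* the CHR, against 3.65% and 17.9% of all windows. A match is only a string of letters, and no match says nothing about the factor.

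Plate 1 gave 84 GFP-high and 95 GFP-low cells and plate 2 gave 53 and 72. The sum of UMIs per plate and category ranged from 778022 to 1029023, and the median per cell was 7856 (low) and 11709 (high) on plate 1 and 11955 and 14729 on plate 2. The NSPC markers *Nes*, *Sox2*, *Fabp7*, *Vim* and *Hes1* together gave 62.9 to 64.04 of 10000 UMIs in every plate and category, and the markers found in the table of neurons, astrocytes, oligodendrocytes and endothelial cells each at most 0.243 in sum. *Dcx*, *Mbp*, *Mog*, *Sox10*, *Cldn5* and the microglial markers had no row in the table used here. GFP-low and GFP-high cells lay in separate rows of wells on both plates (8 rows each, 0 rows with both), so rows and categories cannot be told apart. Mitochondrial counts were at or over 20%, the limit that the study names, in 11 cells.

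The genes were detected at low numbers. Over all cells, *Pik3r1* had 1.55 UMIs per cell, with at least 1 in 63.5% of cells (95% exact binomial interval 57.8% to 68.9%), and was 1286th of all genes by its total. Means per cell were 1.07 UMIs for *Pik3r2* (found in 59.2% of cells), 1.03 for *Pik3r3* (46.7%) and 0.783 for *Pik3ca* (46.1%). Downstream, *Akt2* had 0.646 UMIs per cell (32.9% of cells), *Akt1* 0.474 (33.9%), *Mtor* 0.368 (25.99%) and *Foxo3* 0.1595 (14.8%). The intervals here and below cover counting error only. Some UMIs were divided between genes by the authors' counting, and values that were not whole held 11.8% of the UMIs of *Pik3r1*, 15.4% of those of *Akt2* and at most 4.93% of those of any other of the 8. *Akt2* was above 0 but under 1 UMI in 40 cells, which the shares of cells leave out.

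For each plate and category, counts of the cells were added up and expressed per 10000 UMIs, scaled with TMM factors, so each category has 2 values. A UMI stands for 1 molecule whatever the length of the transcript, so these levels can be set side by side between genes, apart from differences in capture. In GFP-low cells the mean was 1.81 ± 0.147 per 10000 for *Pik3r1* (SD, n = 2 plates), 0.998 ± 0.0562 for *Pik3r2* and 0.963 ± 0.0795 for *Pik3r3*. The regulatory subunit genes were thus followed by *Pik3ca* with 0.683 ± 0.0742, *Akt2* with 0.588 ± 0.0599, *Akt1* with 0.402 ± 0.156, *Mtor* with 0.236 ± 0.112 and *Foxo3* with 0.135 ± 0.0879 per 10000. In this order the plate values of *Pik3r2* and *Pik3r3*, of *Akt1* and *Mtor*, and of *Mtor* and *Foxo3* overlapped.

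*Pik3r1* had the largest difference among the regulatory genes, lower in GFP-high cells. This is the pattern for which it was chosen, so its values are given as a description, and nothing is read from a test of them. GFP-low cells had 1.92 per 10000 on plate 1 and 1.71 on plate 2. In GFP-high cells it had 1.11 per 10000 on plate 1 and 0.900, from 70 counts, on plate 2. Both low sums lay above both high sums, and the mean fell from 1.81 ± 0.147 to 1.00 ± 0.147 per 10000. The fitted log2 fold change of high against low was -0.85 (SE 0.16), which makes the level in GFP-low cells 1.80 times that in high ones, with -0.79 on plate 1 and -0.93 on plate 2. In GFP-high cells the order of the regulatory genes closed up. *Pik3r1* was at 0.900 and 1.11 per 10000, *Pik3r2* at 0.817 and 1.08 and *Pik3r3* at 0.875 and 0.887. The range of *Pik3r2* overlapped that of *Pik3r1* and enclosed that of *Pik3r3*.

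**Figure D1:**
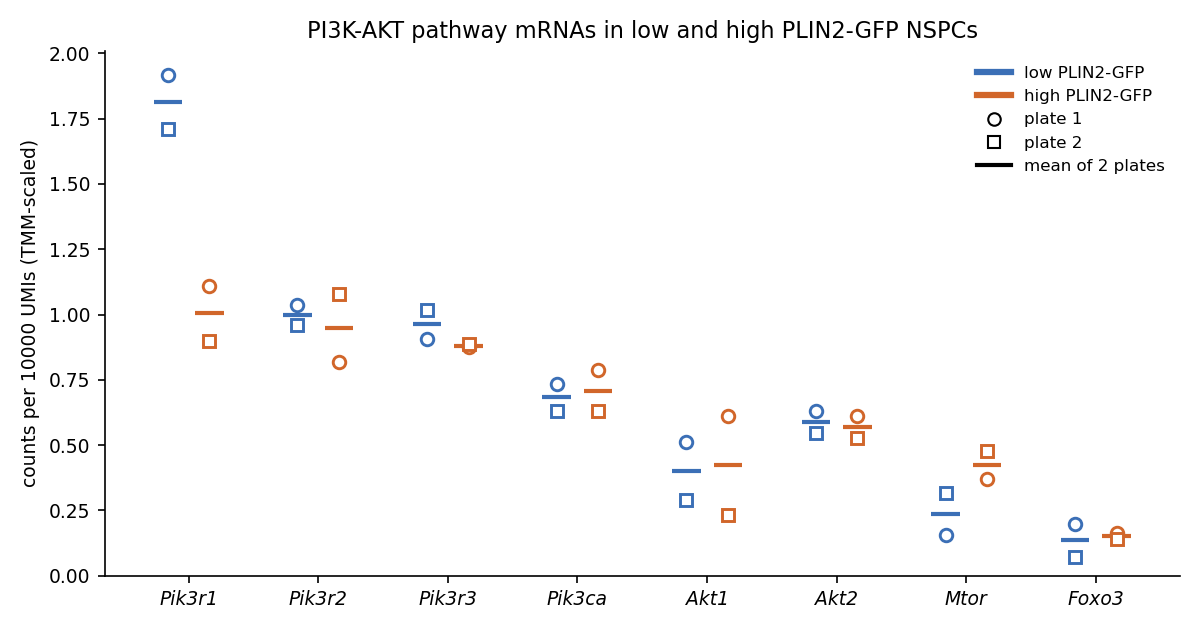
Counts per 10000 UMIs (y axis, TMM-scaled, linear from 0) of the 8 genes in low (blue) and high (orange) PLIN2-GFP cells, with circles for plate 1, squares for plate 2 and bars for the mean of 2 plates. *Pik3r1* sits at 1.71 and 1.92 per 10000 in low and at 0.900 and 1.11 per 10000 in GFP-high cells, whereas *Mtor* is higher in GFP-high cells on both plates.

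The share of cells with a UMI of *Pik3r1* moved the same way. It was 63.2% of low (52.6% to 72.8%) and 53.6% of GFP-high cells (42.4% to 64.5%) on plate 1, and 73.6% (61.9% to 83.3%) and 66.04% (51.7% to 78.5%) on plate 2, so the intervals of the categories overlapped on each plate. GFP-high cells had more UMIs per cell at the median on both plates, for a reason that was not tested. The cells were therefore also compared at a random draw of 5000 UMIs each. This left out the 23 GFP-low and 11 GFP-high cells of plate 1 and the 8 and 3 of plate 2 that had fewer. The thinned shares were 52.6% of low and 38.1% of GFP-high cells on plate 1 and 52.5% and 34.4% on plate 2, further apart than before thinning. No single cell carried the difference, as the cell with the most UMIs of *Pik3r1* held 4.98% to 8.56% of the UMIs of its sum.

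Within cell cycle phases, as the authors assigned them, *Pik3r1* was lower in GFP-high cells in 6 of 6 pairs of plate and phase. In G1 phase it had 2.18 per 10000 in low and 1.74 in GFP-high cells on plate 1, and 1.49 and 0.861 on plate 2. In S phase plate 1 had 2.49 against 0.641 (43 and 17 counts) and plate 2 had 2.07 against 1.23. In G2/M phase plate 1 had 1.23 against 1.01 and plate 2 had 1.68 against 0.618. The log2 ratio of high to low thus spanned -0.28 to -1.96, and the phase with the largest difference was S on plate 1 and G2/M on plate 2. Restricted to cells in G1 phase, the fitted log2 fold change was -0.47, against -0.85 over all cells.

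**Figure D2:**
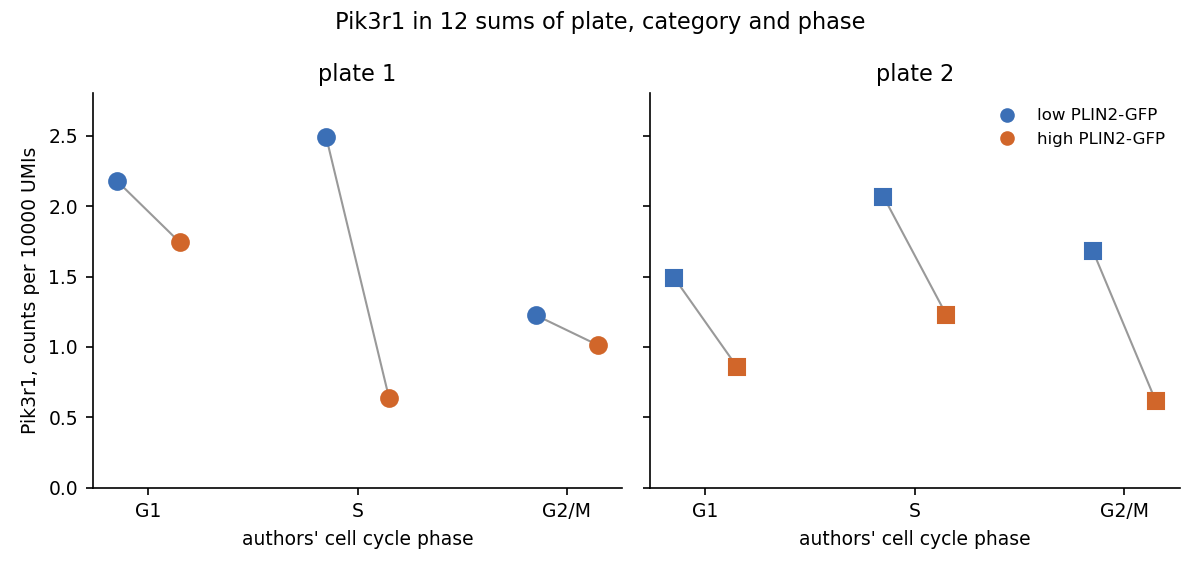
*Pik3r1* level (y axis, counts per 10000 UMIs, TMM-scaled) in low (blue) and high (orange) PLIN2-GFP cells of each cell cycle phase (x axis) on plate 1 (left, circles) and plate 2 (right, squares), with a grey line joining the categories of 1 plate and phase. All 6 lines fall from low to high, most steeply in S phase on plate 1, from 2.49 to 0.641 per 10000.

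The authors' per-cell table also places each cell in 1 of 2 clusters, computed from the same expression values, so a difference between clusters is a description. Cluster 0 held more GFP-high cells (66.3% of its cells on plate 1 and 63.5% on plate 2) than cluster 1 (26.4% and 20.97%). *Pik3r1* had 0.904 UMIs per 10000 in cluster 0 and 1.95 in cluster 1 on plate 1, and 1.04 and 1.56 on plate 2. Within the clusters it stayed lower in GFP-high cells in 4 of 4 pairs of plate and cluster. In cluster 1, for example, it had 2.10 UMIs per 10000 in low and 1.71 in GFP-high cells on plate 1, and 1.78 and 0.812 on plate 2. *Akt1* and *Akt2* were lower in cluster 1 than in cluster 0 on both plates, with log2 ratios of -0.98 and -0.07 for *Akt1* and between -0.37 and -0.07 for *Akt2*, as was *Foxo3*, although by next to nothing on 1 plate. *Pik3r2*, *Pik3r3*, *Pik3ca* and *Mtor* changed sides between plates.

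*Mtor*, the kinase of both mTOR complexes, was the member with the largest difference in the other direction, from few counts. It had 12 counts or 0.158 per 10000 in low and 38 counts or 0.369 per 10000 in GFP-high cells on plate 1, and 26 counts or 0.315 per 10000 and 37 counts or 0.476 per 10000 on plate 2. Both high sums lay above both low sums, although the low sum of plate 2 was close to the high sum of plate 1. The log2 fold change of high against low was 0.85 (SE 0.31), with 1.23 on plate 1 and 0.59 on plate 2, and without the low sum of plate 1, from fits that leave out 1 sum, it was 0.41. A UMI of *Mtor* was found on plate 1 in 10.5% of GFP-low and 30.95% of GFP-high cells, and on plate 2 in 27.8% and 43.4%, and after thinning in 6.81% and 16.9%, and 13.05% and 20.6%. *Mtor* was higher in GFP-high cells in 5 of 6 pairs of plate and phase.

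The other 6 genes differed by less than their standard error. The log2 fold changes of high against low were -0.09 (SE 0.18) for *Pik3r2*, -0.12 (SE 0.19) for *Pik3r3*, 0.05 (SE 0.22) for *Pik3ca*, 0.06 (SE 0.28) for *Akt1*, -0.05 (SE 0.24) for *Akt2* and 0.18 (SE 0.44) for *Foxo3*. The values of *Pik3r3* did not overlap, with 0.906 and 1.02 per 10000 in GFP-low and 0.875 and 0.887 in GFP-high cells, but lay close together. *Akt1* differed more between plates than between categories. It had 0.512 per 10000 in low and 0.612 in GFP-high cells on plate 1, but 0.291 and 0.231 on plate 2. *Pik3ca* had 0.736 and 0.787 per 10000 on plate 1 and 0.631 and 0.630 on plate 2, and *Foxo3* had 0.197 and 0.165 on plate 1 and 0.0728 and 0.141 on plate 2, from 6 to 17 counts per sum. *Pik3r1* made up a smaller share of the UMIs of the 3 regulatory genes in GFP-high cells, with 39.6% against 49.7% in low ones on plate 1 and 31.4% against 46.2% on plate 2.

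At an adjusted p under 0.1, edgeR's quasi-likelihood test with the plate as a block called 1 of these 8 genes, *Pik3r1*, and 2.14% of the 8372 genes tested (0.884% higher and 1.25% lower in GFP-high cells). As this contrast chose *Pik3r1*, nothing is read from that count. The call was made in 7 of 14 alternative analyses and not without the plate block, by DESeq2 or in G1 cells alone. It was also not made when any 1 of the 4 sums was left out, but these fits drop the block as well. They therefore cannot show whether the call rests on 1 sum. With 4 sums and 1 residual degree of freedom, the spread comes almost wholly from other genes.

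Around these genes, the rest of the pathway was described by 63 further genes in 9 lists by role, of which 57 were in the count table and 42 passed the filter on low counts in this comparison. None was called by edgeR (0 of 42, with 2 at an unadjusted p under 0.05) or by DESeq2 (0), and their median log2 fold change was 0.01, against -0.00 over all genes tested. Among the receptors, *Egfr*, which binds the EGF of the medium, had 2.65 and 3.23 per 10000 in low and 2.65 and 2.802 per 10000 in GFP-high cells of plates 1 and 2. *Fgfr1*, a receptor for FGF-2, differed by a log2 fold change of 0.02 (SE 0.17). The adaptor genes *Irs1* and *Gab1* differed by 0.24 (SE 0.19) and -0.07 (SE 0.18) on the log2 scale.

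The lists nearest to the ends of the pathway held the 2 genes with an unadjusted p under 0.05. *Sesn3*, a FOXO target gene whose product restrains mTORC1, had 1.92 and 1.53 per 10000 in low and 1.27 and 1.21 per 10000 in GFP-high cells, with a log2 fold change of -0.48 (SE 0.16, edgeR adjusted p = 0.109). *Rps6*, a ribosomal protein gene whose product is phosphorylated downstream of mTORC1, differed by -0.20 (SE 0.07, edgeR adjusted p = 0.175). *Sesn3* was called with the stricter filter on low counts and *Rps6* without a filter, and in the other alternative analyses neither was. Of the class I PI3K genes outside the 8, *Pik3cb* had 32.7 UMIs in all and *Pik3cg* 2.5, too few to test.

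The phases answer a different question, namely whether these genes vary through the cell cycle. Phase was not part of the rule that chose the 8 genes. These and the 63 others were, however, picked with earlier results of these data known. Phases were assigned by the authors from the expression of cell cycle genes, and 0 of the 8 genes and 0 of the 63 others are in Seurat's lists of S and G2/M phase genes. Counts were summed per plate and phase over both categories, which gave 6 sums with 36 to 81 cells each and median depths of 8290 (G1), 10994 (S) and 9565 (G2/M) UMIs per cell on plate 1 and 9825, 15301 and 12902 on plate 2. Depth thus moved with phase. With 6 sums and 2 residual degrees of freedom, the spread in the phase tests comes largely from other genes.

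*Pik3r3*, which encodes p55γ, was called as varying by phase, with its high point in G1. In G1 phase it had 1.64 per 10000 on plate 1 and 1.98, from 98 counts, on plate 2. In S phase it had 11 counts or 0.242 per 10000 and 27 counts or 0.463 per 10000, and in G2/M phase 29 counts or 0.494 per 10000 and 29 counts or 0.571 per 10000. Both G1 sums lay far above the other 4 sums. S phase cells had a log2 fold change of -2.33 against G1 (SE 0.24, edgeR adjusted p = 2.05e-08), which puts the level in G1 at 5.04 times that in S phase. For G2/M against G1 it was -1.76 (SE 0.22, edgeR adjusted p = 3.09e-07), with the G1 level at 3.39 times that in G2/M phase.

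The fall was seen in each category. From G1 to S phase, *Pik3r3* went from 1.53 to 0.232 per 10000 in low and from 1.87 to 0.264 per 10000 in GFP-high cells on plate 1, and from 1.91 to 0.564 and from 2.17 to 0.399 per 10000 on plate 2. It was lower in 4 of 4 pairs of plate and category, both in S and in G2/M phase. A UMI of *Pik3r3* was found in 60.5% of cells in G1 (49.01% to 71.2%), 14.6% in S (5.57% to 29.2%) and 33.3% in G2/M phase (21.4% to 47.1%) on plate 1. On plate 2 it was found in 70.6% in G1 (56.2% to 82.5%), in 18 of 36 cells in S (32.9% to 67.1%) and in 36.8% in G2/M phase (21.8% to 54.01%). Thinned to 5000 UMIs, with 34 to 66 cells left per plate and phase, plate 1 had shares of 46.8%, 7.50% and 21.9% and plate 2 of 56.4%, 20.9% and 18.97%. The share fell most under thinning in S phase on plate 2, the deepest of the 6 sums per cell. Of the 11 UMIs in S phase on plate 1, 45.5% came from 1 cell.

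Both calls of *Pik3r3* were made in 16 of 16 alternative analyses each, with log2 fold changes of -2.89 to -1.95 (adjusted p at most 0.000541) in S and -1.90 to -1.62 (adjusted p at most 0.00384) in G2/M phase, by edgeR and DESeq2. The gene lies on chromosome 4 (chr4:116221618-116303056, plus strand) and overlaps *Gm49337* on the same strand, so their UMIs could be divided between them, but *Gm49337* had 4.5 UMIs in all, of which 3 in G1.

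**Figure D3:**
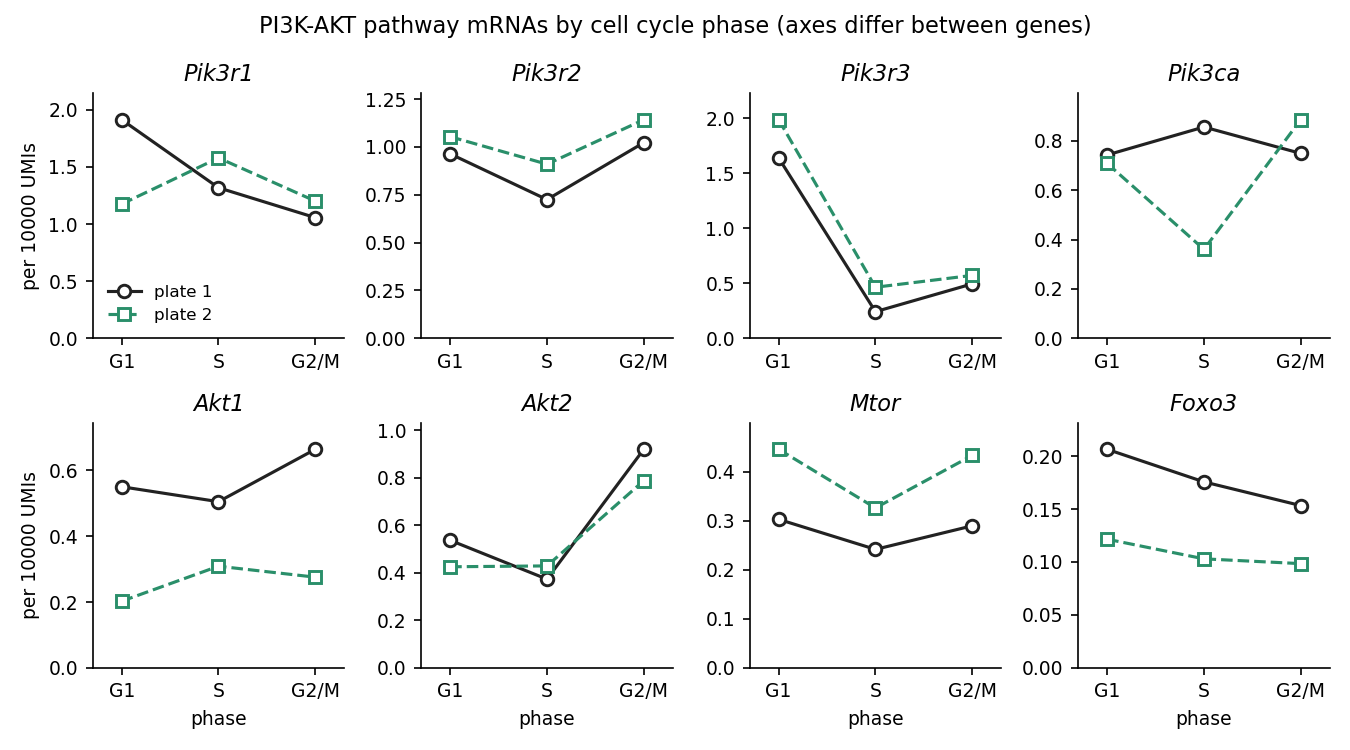
Counts per 10000 UMIs (y axes, TMM-scaled, linear from 0, with a scale of its own for each gene) of the 8 genes in G1, S and G2/M phase (x axes) on plate 1 (black circles, solid line) and plate 2 (green squares, dashed line). *Pik3r3* falls from 1.64 and 1.98 per 10000 in G1 to 0.242 and 0.463 in S phase on both plates, *Akt2* is highest in G2/M phase, and the plates of *Pik3r1* cross.

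*Akt2*, the AKT isoform best known for insulin-driven glucose uptake, was higher in G2/M than in G1 phase. It had 39 counts or 0.537 per 10000 in G1, 17 counts or 0.373 per 10000 in S and 54 counts or 0.920 per 10000 in G2/M phase on plate 1. On plate 2 these were 21 counts or 0.425 per 10000, 25 counts or 0.429 per 10000 and 40 counts or 0.787 per 10000. Both G2/M sums exceeded the other 4 sums, and the level was higher than in G1 in 4 of 4 pairs of plate and category. The log2 fold change was 0.81 (SE 0.25, edgeR adjusted p = 0.0301, between 0.0205 and 0.785 in 16 alternative analyses), or 1.76 times the G1 level. The call was not made by DESeq2 (adjusted p = 0.785). It was also not made when either G1 or either G2/M sum was left out, in fits that drop the plate block as well. Without the block but with all sums it was made. Thinned to 5000 UMIs, 39.3% of G2/M cells had a UMI of *Akt2* against 22.8% of G1 cells on plate 1, and 28.97% against 16.2% on plate 2, while the unthinned shares were 43.9% and 28.4%, and 39.5% and 31.4%.

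*Pik3r1*, in contrast to *Pik3r3*, had no phase difference that held on both plates. Across G1, S and G2/M phase it went 1.91, 1.32 and 1.06 per 10000 on plate 1, and 1.17, 1.58 and 1.20 per 10000 on plate 2. The plates thus disagreed on whether G1 or S phase was higher. These sums pool the categories in unequal mixes, and *Pik3r1* was chosen for being lower in GFP-high cells. Plate 1 had 32 GFP-high and 49 GFP-low cells in G1, 20 and 21 in S and 32 and 25 in G2/M phase. Plate 2 had 20 and 31, 18 and 18, and 15 and 23. Within categories, S phase was higher than G1 in 3 of 4 pairs of plate and category, and G2/M phase lower in 3 of 4. Against G1, the log2 fold change was -0.11 in S (SE 0.20, edgeR adjusted p = 0.827) and -0.49 in G2/M phase (SE 0.21, edgeR adjusted p = 0.124), and *Pik3r1* was not called in any of 16 alternative analyses of either contrast. The difference between the changes of *Pik3r1* and *Pik3r3* was not tested.

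None of the other genes was called in either phase contrast. *Pik3r2* had 0.963, 0.725 and 1.02 per 10000 across G1, S and G2/M phase on plate 1, and 1.05, 0.909 and 1.14 on plate 2. Its log2 fold changes against G1 were -0.30 (SE 0.22) in S and 0.10 (SE 0.20) in G2/M phase. *Pik3ca* was uneven in S phase, with 0.856 per 10000 on plate 1 and 0.360 on plate 2, against 0.743 and 0.709 in G1, and had fold changes of -0.30 (SE 0.29) and 0.17 (SE 0.26) on the log2 scale. *Mtor* differed from G1 by -0.40 (SE 0.35) in S and -0.05 (SE 0.33) in G2/M phase, and *Akt1* by 0.13 (SE 0.32) and 0.31 (SE 0.30). *Foxo3*, with 5 to 15 counts per sum, fell under the filter and was not tested.

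The make-up of the regulatory subunit mRNAs differed by phase on both plates. *Pik3r3* gave 36.3% and 47.1% of the UMIs of the 3 genes in G1 on plates 1 and 2, 10.6% and 15.7% in S and 19.2% and 19.4% in G2/M phase. The share of *Pik3r1* was highest in S phase, with 57.5% and 53.5%, and *Pik3r2* reached its highest shares in G2/M phase, with 39.7% and 39.4%. Each share also depends on the counts of the other genes. The level of *Pik3r1* in S against G1 phase was 1.32 against 1.91 per 10000 on plate 1 and 1.58 against 1.17 on plate 2. That of *Pik3r2* in G2/M against G1 phase was 1.02 against 0.963 per 10000 on plate 1 and 1.14 against 1.05 on plate 2. Shares and levels are of mRNA molecules and say nothing of the amount of protein.

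Of the 7 genes tested, 1 was called in S phase (lower) and 2 in G2/M phase (1 higher, 1 lower), against backgrounds of 12.8% of 7667 genes in S phase (7.62% higher and 5.14% lower) and 16.7% in G2/M phase (9.36% higher and 7.38% lower). With so many genes moving by phase, 1 or 2 calls among 7 are near the background. The median log2 fold change of the 7 was -0.30 in S and 0.10 in G2/M phase, against -0.02 and -0.01 over all genes tested.

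Whether the difference between categories depended on the phase was asked with 12 sums of plate, category and phase. Of 6190 genes tested, 0.0646% (4 genes) were called for an interaction by edgeR's quasi-likelihood test, and 0 of the 7 tested among the 8 genes, with 0 at an unadjusted p under 0.05. For *Pik3r1* the adjusted p was 0.970 (unadjusted 0.151), so its larger differences in S phase on plate 1 and in G2/M phase on plate 2 could not be told from the spread. Of the 31 other listed genes tested, 0 were called by edgeR and 0 by DESeq2, with 1, *Sgk1*, at an unadjusted p under 0.05 in edgeR.

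Among the 37 other listed genes tested by phase, 5 were called in S phase (13.5%, 1 higher and 4 lower) and 5 in G2/M phase (2 higher and 3 lower), again close to the background shares. Of the 5 FOXO target genes tested, 3 were lower in S phase, and 1 was higher and 1 lower in G2/M phase. Of all genes tested, 5.14% were called lower in S phase, and 9.36% higher and 7.38% lower in G2/M phase. *Sesn3* had 2.27 per 10000 on both plates in G1, against 1.05 and 0.978 in S phase and 1.11 and 1.00 in G2/M phase. Like *Pik3r3*, it was highest in G1 on both plates, with log2 fold changes of -1.16 in S (SE 0.18, edgeR adjusted p = 2.52e-05, at most 0.0319 in 16 alternative analyses) and -1.10 in G2/M phase (SE 0.17, edgeR adjusted p = 2.06e-05, at most 0.0317 in 16).

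The other calls of listed genes outside the 8 held less well, each made in 5 to 7 of its 13 or 16 alternatives. None of them was made by DESeq2, without the plate block or after thinning to 5000 UMIs. *Sesn1*, another sestrin gene, had 0.316 and 0.385 per 10000 in G1 and 0.154 and 0.120 in S phase (log2 fold change -1.34, SE 0.43, edgeR adjusted p = 0.0468, 0.0343 to 0.897 in 13 alternatives). *Ccng2*, a cyclin gene associated with cell cycle arrest, had 0.248 and 0.263 per 10000 in G1 and 0.1098 and 0.0515 in S phase, from 3 to 18 counts (-1.76, SE 0.55, edgeR adjusted p = 0.0396, 0.0170 to 0.750 in 13). *Cdkn1b*, which encodes the CDK inhibitor p27, had 1.35 and 1.64 per 10000 in G1 and 2.23 and 2.07 in G2/M phase (0.55, SE 0.17, edgeR adjusted p = 0.0290, 0.0187 to 0.679 in 16), so the genes of this list did not move together.

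Of the AKT-like kinases, which share targets with AKT, *Sgk1* was lower than in G1 in both phases and *Sgk3* higher in S phase. *Sgk1* had 1.09 and 0.891 per 10000 in G1, against 0.461 and 0.703 in S phase and 0.749 and 0.472 in G2/M phase, with log2 fold changes of -0.73 (SE 0.26, edgeR adjusted p = 0.0761, 0.0598 to 0.999866 in 16) and -0.69 (SE 0.25, edgeR adjusted p = 0.0703, 0.0656 to 0.949 in 16). *Sgk3* had 0.124 and 0.142 per 10000 in G1 and 0.373 and 0.326 in S phase, from 7 to 19 counts (1.38, SE 0.45, edgeR adjusted p = 0.0470, 0.0305 to 0.938 in 13). *Pik3c3*, the class III PI3K that works in autophagy, had 0.303 and 0.243 per 10000 in G1 and 0.102 and 0.118 in G2/M phase, from 6 to 22 counts (-1.33, SE 0.48, edgeR adjusted p = 0.0684, 0.0507 to 0.922 in 13). *Eif4e*, whose cap-binding product is released by mTORC1, rose from 2.88 and 3.28 per 10000 in G1 to 3.78 and 4.17 in G2/M phase (0.37, SE 0.12, edgeR adjusted p = 0.0475, 0.0297 to 0.693 in 16).

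**Figure D4:**
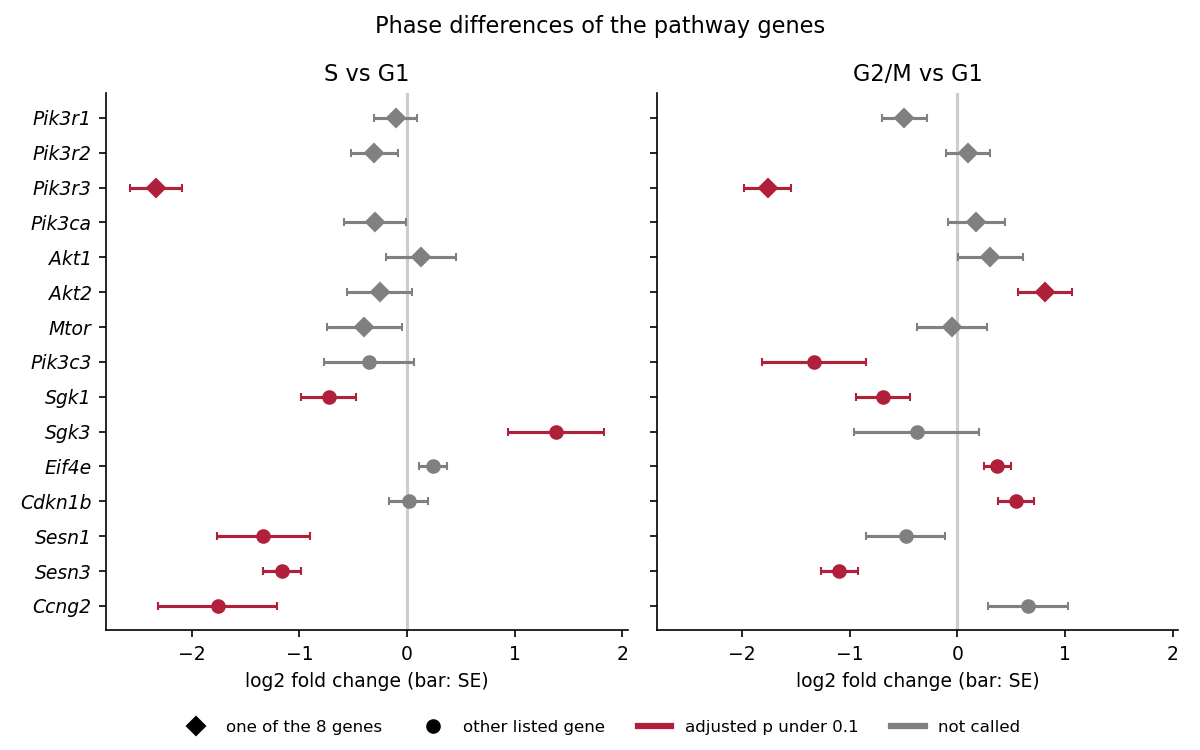
Log2 fold change (x axes, bars are SE) of S against G1 (left) and G2/M against G1 (right) for 7 of the 8 genes (diamonds) and for the other listed genes called in either contrast (circles), with genes at an adjusted p under 0.1 in red and the rest in grey. *Pik3r3* lies farthest to the left in both panels, at -2.33 and -1.76, and *Sesn3* lies at -1.16 and -1.10.

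No gene of the receptors, adaptors, phosphatases or mTOR complexes was called by phase. *Egfr* had 2.77, 2.53 and 2.71 per 10000 across G1, S and G2/M phase on plate 1, and 3.34, 3.21 and 2.62 on plate 2. *Gab1* had the lowest adjusted p among them, with a log2 fold change of -0.54 in S against G1 phase (SE 0.21, edgeR adjusted p = 0.113). *Mapkap1*, a subunit of mTORC2, and *Rheb*, the GTPase that activates mTORC1, differed from G1 by 0.06 (SE 0.21) and 0.00 (SE 0.25) in S phase.

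To see which genes varied most like *Pik3r1*, Pearson's r of log2 levels (counts per 10000 UMIs) was computed over the 12 sums of plate, category and phase for 2699 genes with at least 240 counts. The highest were *Gm10275* (0.90), *Cnot7* (0.87), *Ano6* (0.84), *Sh2b1* (0.82) and *Rev3l* (0.79). *Gm10275* is annotated as a transcribed processed pseudogene, *Cnot7* encodes a deadenylase of mRNA, *Ano6* a lipid scramblase, *Sh2b1* an adaptor of receptor tyrosine kinases and *Rev3l* a DNA polymerase subunit. Of the pathway genes with that many counts, *Sesn3* came highest at 0.52, and *Pik3r3* had 0.18, in place 747. *Pik3ca*, *Akt1*, *Akt2*, *Mtor* and *Foxo3* had fewer counts and were not compared. These are descriptions of 12 sums that share plates and depth, with 14 to 81 counts of *Pik3r1* each. The sums also span both categories, for whose difference *Pik3r1* was chosen, and r does not separate that difference from other variation.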

How the data were processed

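Single cells of 2 plates were analysed. The authors aligned reads to GRCm38 with Salmon and alevin and deposited estimated counts of UMIs per gene and cell, of which 87.1% of the nonzero values were whole (within 1e-06). Versions and the annotation release are not given in the sources used here. A per-cell table deposited by the authors gave the plate, category, phase and cluster, counts of UMIs and of detected genes, and the percent of mitochondrial counts. All cells were joined to it by equal UMI totals and numbers of genes, and the mitochondrial percent of each joined cell was then checked. The authors' filters were mitochondrial counts under 20% and doublet detection, and no cell was removed here. The 2 plates share 59 well barcodes, as the same barcode set serves each plate.

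Counts were summed per plate and category (4 sums), phase (6) or both (12), and rounded. Sums had 460368 to 1029023 UMIs in the comparisons of categories and of phases. Genes passing filterByExpr were tested with edgeR 4.0.16 (quasi-likelihood, TMM, plate as block, R 4.3.3) and called at a Benjamini-Hochberg adjusted p under 0.1 over all genes tested. DESeq2 1.42.0 was an alternative, beside other normalizations, filters, cell sets and thinning to 5000 UMIs. Sums of 1 plate share their cells' plate, and deviations from group means correlated within plates (0.298 between categories, 0.197 to 0.225 between phases), so the plate numbers pair the sums. The sums come from 1 line, so p-values do not measure variation between lines or animals. The fits had 1 residual degree of freedom for categories, 2 for phases and 5 for the interaction. The spread behind each p-value is therefore shared with other genes, almost wholly so for the categories. Phase sums, once added over categories, use the same cells as the category sums. Shares of cells have exact binomial intervals. Detection after thinning is the mean of 20 draws. Seurat 5.3.0 supplied the lists of cell cycle genes, and Python 3.11.15 was used for descriptions. Promoter windows are RefSeq's, and gene positions GENCODE M21's.

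The 8 genes and the lists of 63 others were chosen with earlier results of these data known. Named are all 8 genes, listed genes called in a comparison, up to 3 of the most counted tested genes per list, and the 5 genes most correlated with *Pik3r1*. *Pik3cb*, *Pik3cg* and *Gm49337* were named after their values were seen, as were *Irs1*, *Gab1*, *Mapkap1*, *Rheb* and *Rps6* where they fall outside that rule.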

Additional observations from a re-analysis of the deposited data

How the results depend on the processing

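The fall of *Pik3r3* and of *Sesn3* from G1 to S and to G2/M phase was called in all 16 alternatives run for each, and 0 genes of the pathway were called for an interaction in any alternative. The pairing of sums by plate mattered to the counts: with no replicate block, pathway genes called fell from 6 to 2 in S phase and from 7 to 3 in G2/M phase. The interaction had 0 calls with and without the block. Between categories, 0 of the listed genes outside the 8 were called with or without it. *Pik3r1* was called with the block and not without it, but as this contrast chose the gene, nothing is read from that. DESeq2 called 2 in each phase contrast. Thinning to 5000 UMIs gave 2 in S and 4 in G2/M phase, the latter with *Irs1*, which was not called without thinning. The stricter filter (20 counts per sum on average) left 3 in S phase. *Sesn1*, *Ccng2* and *Sgk3* fell under that filter and were not tested with it. Leaving out 1 sum, which is done without the block, gave 2 to 3 calls in S and 2 to 3 in G2/M phase. With the lone sum of a group taken to vary like the others, these fits have less power by construction. Between categories, 1 listed gene was called with no filter (*Rps6*) and 1 with the stricter filter (*Sesn3*), against 0.

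Directions that changed between phases are given here as log2 fold changes. After thinning, *Pik3r2* came to 0.13 and *Akt2* to 0.31 in S phase, and *Pik3r2* to -0.027 in G2/M phase. *Akt1* came to -0.000494 in S phase without the block. With 1 sum left out, S phase values ranged from -0.40 to 0.30 for *Pik3r1*, -1.01 to 0.23 for *Pik3ca* and -0.47 to 0.97 for *Akt1*, and G2/M values from -0.52 to 1.23 for *Akt1* and -0.33 to 0.25 for *Mtor*. Between GFP-high and GFP-low cells, values ranged over the alternatives from -0.78 to 0.62 for *Akt1*, -0.35 to 1.07 for *Foxo3*, -0.34 to 0.11 for *Pik3r2*, -0.21 to 0.23 for *Pik3r3*, -0.15 to 0.34 for *Pik3ca* and -0.16 to 0.13 for *Akt2*, so none of these 6 kept its direction. The cause was not tested. Depth limits *Foxo3*, *Mtor* and *Akt1* most, with 0.1595, 0.368 and 0.474 UMIs per cell.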
